A study of Mus musculus with 18 samples.

Results

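AMP-activated protein kinase is read here through its 6 subunit genes and through Stk11, which encodes its upstream kinase LKB1. Members were the probe sets of the array that the platform annotation gives to Prkaa1, Prkaa2, Prkab1, Prkab2, Prkag1, Prkag2 or Stk11 and to no other gene. That rule found 17 probe sets of 7 genes, of 34958 probe sets with 1 gene symbol and 18194 genes in all. Prkaa1 had 1 probe set, Prkaa2 3, Prkab1 2, Prkab2 3, Prkag1 2, Prkag2 4 and Stk11 2. The family was selected on the level of Prkaa2 before transformation against control, known from earlier results of these data, so every value of Prkaa2 is a description without a test. The other 6 genes came in by family name, and 11 of their 14 probe sets were bright enough to be tested.

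Total RNA of 18 mice, independent per the series' design text, was hybridized to Affymetrix mouse expression arrays, 1 for each mouse. The control group held 5 mice, which the sample labels call wild type and the design text LckCre; that conflict was not settled. Of the CD4Cre-Ctnnbex3 animals, 5 were taken before T-cell transformation and 8 had lymphoma. In this model Cre under Cd4 control removes exon 3 of the beta-catenin gene Ctnnb1, which leaves a stabilised protein in thymocytes, so both CD4Cre-Ctnnbex3 groups carry the allele and the controls do not. Thymocytes or tumour masses were collected, and neither age nor strain background is given in the sources.

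AMP-activated kinase is a heterotrimer of a catalytic alpha, a scaffolding beta and a nucleotide-binding gamma subunit. It responds to a rising ratio of AMP and ADP to ATP once LKB1 has phosphorylated the activation loop of the alpha subunit, and it then slows lipid and protein synthesis and favours fatty acid oxidation and autophagy. In T cells and thymocytes the alpha 1 subunit, encoded by Prkaa1, is generally taken as the main catalytic form, while alpha 2, encoded by Prkaa2, is best known from skeletal muscle, heart and liver.

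The proximal promoters of the 2 catalytic subunit genes are printed because the largest differences of the family were theirs, at different steps. Each line gives 250 bases before and 50 bases after the RefSeq start, 5′ to 3′ on the strand of the gene, in build GRCm38.p6. Capitals mark the GC box GGGCGG or its reverse complement CCGCCC, and where boxes overlap they run together. Prkaa2 lies at chr4:105109849-105110148 on the minus strand and Prkaa1 at chr15:5143611-5143910 on the plus strand.
Prkaa2: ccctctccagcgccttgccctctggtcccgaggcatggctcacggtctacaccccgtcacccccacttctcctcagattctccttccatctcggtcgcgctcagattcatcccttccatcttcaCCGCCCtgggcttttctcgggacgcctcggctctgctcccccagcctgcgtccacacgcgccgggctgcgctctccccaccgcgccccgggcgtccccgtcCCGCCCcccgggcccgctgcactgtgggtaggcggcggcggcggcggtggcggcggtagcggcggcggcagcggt
Prkaa1: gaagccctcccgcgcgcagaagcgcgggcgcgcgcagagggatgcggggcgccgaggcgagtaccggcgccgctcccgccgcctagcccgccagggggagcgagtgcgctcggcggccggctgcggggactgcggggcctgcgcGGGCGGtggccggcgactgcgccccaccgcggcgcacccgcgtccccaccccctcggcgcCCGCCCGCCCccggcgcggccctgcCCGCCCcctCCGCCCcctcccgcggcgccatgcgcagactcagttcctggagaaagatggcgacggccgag

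The Prkaa2 window held 2 GC boxes and 35 CpG dinucleotides, more than 93.0% of the 32851 promoters in the RefSeq table. The Prkaa1 window held 5 GC boxes, some of which overlap, and 52 CpG, more than 99.4% of promoters. A GC box was present in 35.7% of all promoters of that length. Both strands were searched for 4 other words. The TCF/LEF word CTTTGAT, found in 3.73% of promoters, and the E-box CACGTG, found in 7.15%, were in no promoter window of any member. Neither window printed above held the CCAAT word (37.4% of promoters) or the TATAAA word (13.6%). No match says only that these letters are not in this window.

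Median probe-set intensities of the 18 arrays ran from 125 to 166, and the number of mice limits the precision of each comparison. Intensities under 53.5, the 20th percentile of all values, were set to that floor and have no order. The label of thymocytes was borne out by T-cell markers: 8 of 9 listed genes had a probe set used here, and their summed intensity was 49800 to 54900 in controls and 41100 to 63700 before transformation, with Cd3e, Cd4, Cd8a, Rag1 and Thy1 all far above the floor. In lymphomas that sum was 17700 to 29800, under every other mouse. The sum of 6 myeloid markers was 2650 to 3730 in controls, 2880 to 4760 before transformation and 4480 to 15300 in lymphomas, and that of 6 stromal and endothelial markers 852 to 1040, 915 to 1760 and 820 to 5310. Of the 6 myeloid markers Itgam alone did not overlap between controls (34.0 to 84.6) and mice before transformation (586 to 1360). Lymphoma medians were above both other groups for Lyz2, Cd68, Itgam and Adgre1. They were lower for Csf1r (medians 1500, 1440 and 919 in the same order) and Cd14 (339, 307 and 123). Against controls they were higher for Col1a1, Col1a2, Col3a1 and Pdgfrb, but not for Pecam1 (416, 340 and 374) or Cdh5 (78.5, 70.7 and 75.8). The 6 granulocyte markers summed to 2990 to 9470 in controls against 1110 to 1960 before transformation. Of them Elane alone had a higher median before transformation (365 against 245). Xist and Eif2s3y showed 2 female and 3 male controls, 5 male mice before transformation, and 6 female, 1 male and 1 lymphoma with both signals. What part these differences have in the results that follow was not tested, except where a value is given.

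Prkaa2 stood near or under the floor in control thymocytes and well above it in both groups with stabilised beta-catenin. For probe set 1429463_at, the brightest of the 3, the control intensities were 39.0, 26.7, 29.0, 30.5 and 32.3, all below the floor. Before transformation the 5 mice had 722, 541, 612, 1070 and 1080. The lowest, median and highest lymphoma had 205, 398 and 1200. Neither CD4Cre-Ctnnbex3 group overlapped the controls, and the 2 groups overlapped each other. Because every control was at the floor, the difference is a lower bound: at least 14.5-fold higher before transformation (log2 difference 3.85) and at least 7.58-fold higher in lymphoma (2.92). The bound for mice before transformation moves with the floor, to 4.54 on the log2 scale with a floor at the 10th percentile and 3.31 at the 30th. In bulk RNA, fewer cells of a type and less RNA per cell cannot be told apart.

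The other 2 Prkaa2 probe sets gave the same order against control at smaller size. Of these, 1429464_at derives from the same clone sequence as 1429463_at, so it is not an independent reading. Probe set 1434766_at read 52.5, 51.1, 59.7, 81.3 and 65.9 in controls, 2 of them at the floor, and 529, 431, 358, 520 and 537 before transformation. In lymphomas its lowest, median and highest values were 172, 414 and 1160. Again no mouse of either CD4Cre-Ctnnbex3 group reached down to the controls, and the log2 difference from control was 2.92 before transformation and 2.77 in lymphoma. Probe set 1429464_at read 55.8, 80.4, 75.1, 116 and 66.8 in controls and 178, 121, 156, 182 and 166 before transformation, a log2 difference of 1.06. In lymphomas it ran from 102 through a median of 151 to 256, a log2 difference from control of 0.97, and control 4 overlapped the lowest lymphomas.

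The lymphomas were not above the mice before transformation on average. The log2 difference of lymphoma minus before transformation was -0.93 for 1429463_at, -0.15 for 1434766_at and -0.09 for 1429464_at, and the values overlapped for each. The last pair were small enough to change sign with the replicate number as a block (0.11 and 0.05), and that of 1434766_at also without lymphoma 6 (0.03). The tumours were spread more widely than the mice before transformation. The highest lymphoma was 5.87 times the lowest for 1429463_at, 6.72 times for 1434766_at and 2.51 times for 1429464_at, against 2.0, 1.5 and 1.51 times among the 5 mice before transformation. Lymphoma 3 was highest on all 3 probe sets. It is also the 1 tumour with male signal alone, and with sex as a covariate, which rests on it, the differences became 0.63, 1.3 and 0.69.

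Prkaa2 is a muscle-rich gene, and skeletal muscle markers were read beside it. Myl1 and Tnnc2, a light chain and a troponin of fast muscle, were at the floor in 5 and 4 of 5 controls and in 5 of 5 mice before transformation, and Tnnt3 in 4 of 5 and 3 of 5. Ckm and Acta1, the muscle creatine kinase and muscle actin, had medians of 196 and 66.3 in controls and 199 and 77.5 before transformation. Mylpf, another light chain, was above the floor in every mouse. It read 224 to 326 in controls, 156 to 305 before transformation and 66.8 to 143 in lymphomas. The sum of the 6 muscle markers was 593 to 725 in controls, 561 to 678 before transformation and 297 to 799 in lymphomas. The part of muscle RNA in the level of Prkaa2 was not tested. Within the mice numbered 3 and up alone, where the 3 controls are male like the mice before transformation, the log2 differences of Prkaa2 before transformation were 4.06, 2.76 and 1.01.

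**Figure D1:**
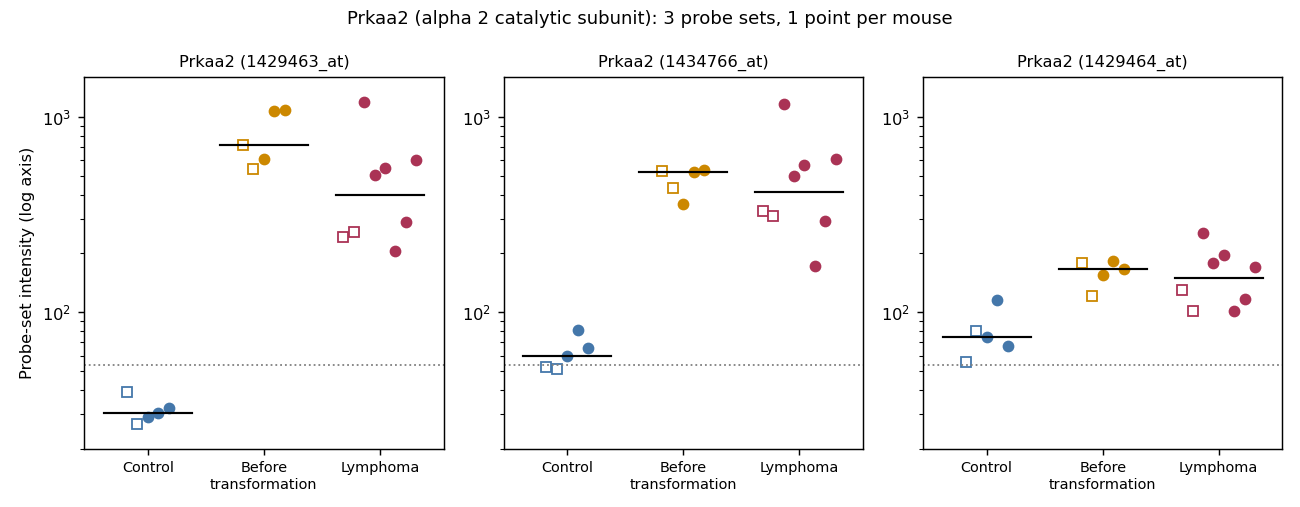
Intensity (log axis) of the 3 Prkaa2 probe sets in each of 5 controls, 5 mice before transformation and 8 lymphomas; open squares are mice numbered 1 and 2, filled circles mice numbered 3 and up, horizontal lines group medians and the dotted line the floor of 53.5. All controls of 1429463_at sit under the floor, and lymphoma 3 is highest in each panel.

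Prkaa1, the alpha 1 catalytic subunit, rose in lymphoma. Probe set 1437539_at read 88.0, 71.5, 102, 76.5 and 108 in controls and 63.6, 65.6, 86.7, 69.2 and 77.7 before transformation. The lymphomas ran from 117 through a median of 185 to 224, and every lymphoma lay above every other mouse. The log2 difference was 1.31 ± 0.15 (SE, 8 against 5 mice) from mice before transformation, a 2.47-fold rise with limma's adjusted p = 2.4e-05. Against control it was 1.02 ± 0.16, a 2.02-fold rise with adjusted p = 0.000165. Both calls held in 27 of 27 alternative settings, that with no filter included, with adjusted p of 2.54e-06 to 0.0273 and of 2.93e-05 to 0.0126. Probe set 1437539_at entered the main test through the lymphomas alone, as no other mouse was above the filter intensity of 109. Before transformation Prkaa1 did not pass against control (-0.29 ± 0.15, adjusted p = 0.305, 95% interval -0.61 to 0.04).

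Prkaa2 was thus high in both CD4Cre-Ctnnbex3 groups, by description. Prkaa1 rose in lymphoma, by a test it entered through the lymphomas, and the difference between the 2 genes was not tested. The myeloid and stromal marker sums, though not all of their markers, were also higher in many lymphomas than in other mice. Their part in the rise of Prkaa1 was not tested. Lymphoma 6 had the lowest Prkaa1, at 117 against 166 to 224 in the other 7, and was also lowest for Prkaa2 on 1429463_at and 1434766_at (205 and 172), while on 1429464_at it read 102, as did lymphoma 2.

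Stk11 encodes LKB1, the kinase that activates the alpha subunits. Probe set 1418644_a_at read 1040, 851, 882, 947 and 1010 in controls and 1110, 1060, 851, 904 and 805 before transformation. The lymphomas ran from 656 through 715 to 802, all below every other mouse. Stk11 fell by 0.38 ± 0.10 (SE) on the log2 scale from mice before transformation to lymphoma (1.3-fold lower, adjusted p = 0.0101) and by 0.39 ± 0.09 from control (1.31-fold lower, adjusted p = 0.00304). Before transformation the difference from control was -0.01 ± 0.11 (adjusted p = 0.987, 95% interval -0.24 to 0.23).

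The falls of Stk11 are small and depend on the scaling of the arrays. They were called in 24 of 27 settings against mice before transformation (adjusted p 0.00388 to 0.236) and in 25 of 27 against control (0.000642 to 0.101), and with arrays centred on their median the differences shrank to -0.30 in both and neither passed. Between the mice before transformation and the lymphomas it differed by -0.57 in mice numbered 1 and 2 alone and by -0.25 in mice numbered 3 and up. A second Stk11 probe set, 1448062_at, was too dim to test and ran the other way. It read 33.4 to 67.3 in controls, 49.9 to 97.1 before transformation and 52.4 to 124 in lymphomas, with medians of 47.5, 71.5 and 96.0 and overlap throughout.

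Prkab1, the beta 1 scaffold that joins alpha and gamma and binds glycogen, fell in lymphoma on both of its probe sets. Probe set 1452457_a_at read 458, 414, 330, 363 and 383 in controls and 368, 358, 355, 359 and 424 before transformation, and 243, 274 and 306 at the lowest, median and highest lymphoma. No lymphoma reached the other mice. The fall was 0.42 ± 0.10 on the log2 scale from mice before transformation (1.34-fold lower, adjusted p = 0.00424) and 0.48 ± 0.11 from control (1.4-fold lower, adjusted p = 0.00226), and it was called in 24 of 26 and 26 of 26 settings. Those settings gave adjusted p of 0.000754 to 0.203 and 0.000721 to 0.0374.

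The brighter Prkab1 probe set, 1424119_at, carried a second pattern. It read 993, 1010, 711, 797 and 754 in controls and 972, 945, 742, 726 and 780 before transformation, and ran from 531 through 629 to 830 in lymphomas. In each group the mice numbered 1 and 2 held the 2 highest values, lymphomas 1 and 2 with 695 and 830 included. It fell by 0.40 ± 0.13 on the log2 scale from mice before transformation (adjusted p = 0.0228) and by 0.43 ± 0.13 from control (adjusted p = 0.0154), with some overlap. With the set of mice numbered 1 and 2 against 3 and up as a block the differences were -0.34 (adjusted p = 0.0032) and -0.37 (adjusted p = 0.00241). Across all settings the adjusted p ran from 0.0032 to 0.42 and from 0.00241 to 0.115. The first call was lost without mouse 1 or mouse 2 before transformation (differences -0.34 and -0.35), and the call against control without control 2 (-0.36). Before transformation neither Prkab1 probe set passed against control (-0.03 and -0.06, adjusted p = 0.946 and 0.852).

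Prkab2, the beta 2 scaffold, passed on none of its 3 probe sets in any of the 3 comparisons. Probe set 1435874_at came nearest: controls read 248, 378, 230, 402 and 283, mice before transformation 342, 312, 360, 419 and 309, and lymphomas 307, 388 and 503 at the lowest, median and highest. Its difference of lymphoma from control was 0.41 ± 0.16 (adjusted p = 0.0526), and it was called in 9 of 27 settings, quantile normalization (0.54) and median centring (0.49) among them, with adjusted p of 0.0126 to 0.689. It was also called without control 2 (0.49), control 4 (0.51) or lymphoma 2 (0.46). For 1442001_at and 1435875_at the 6 differences lay between -0.17 and 0.07, with adjusted p of 0.563 or more. The 8 lymphomas spread over 143 to 414 on 1442001_at, against 247 to 288 in the other 10 mice.

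Prkag1, the gamma 1 subunit that binds AMP, ADP and ATP, passed on neither of its probe sets. Probe set 1417690_at read 1290 to 1420 in controls, 1350 to 1580 before transformation and 1110 to 1540 in lymphomas. Its differences were 0.04 (95% interval -0.11 to 0.20) before transformation against control, -0.10 (-0.32 to 0.13) for lymphoma against before transformation and -0.06 (-0.27 to 0.16) for lymphoma against control. Probe set 1433533_x_at, whose suffix marks probes that can match other transcripts, gave 0.09, 0.08 and 0.17 in the same order, and adjusted p of 0.313 or more.

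Prkag2, the gamma 2 subunit, was lower in mice before transformation than in either other group. Probe set 1451140_s_at read 295, 254, 263, 233 and 231 in controls and 184, 243, 173, 166 and 155 before transformation, where mouse 2 alone lay among the controls. The lymphomas ran from 223 through 249 to 454. Probe set 1423831_at read 178, 105, 97.1, 81.7 and 116 in controls, 68.7, 89.2, 57.2, 42.9 and 72.7 before transformation, and 85.0, 111 and 237 at the lowest, median and highest lymphoma. Both probe sets were lowest in the middle group, with some overlap at each step. They derive from the same clone sequence, so they are not independent readings.

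The first step of Prkag2 passed narrowly. It fell by 0.48 ± 0.14 on the log2 scale (adjusted p = 0.0443) and by 0.73 ± 0.21 (adjusted p = 0.048) from control to mice before transformation. Those calls held in 8 of 24 and 5 of 22 alternative settings, with adjusted p of 0.0075 to 0.337 and 0.0171 to 0.204. With the replicate number as a block the adjusted p of 1451140_s_at was 0.0518 and that of 1423831_at 0.0355. With the set of mouse numbers (1 and 2, or 3 and up) as a block they were 0.014 and 0.0171. Leaving out any mouse but mouse 2 before transformation ended the call of 1451140_s_at (differences without 1 mouse -0.43 to -0.52), and leaving out any but mouse 2 before transformation or control 4 ended that of 1423831_at. The difference of 1423831_at was -0.48 with a floor at the 30th percentile. This probe set entered the main test through controls and lymphomas alone, as no mouse before transformation was above the filter intensity of 109. With no filter neither fall of Prkag2 was called. The granulocyte marker sum, though not its marker Elane, was also lower in mice before transformation than in controls, and its part here was not tested.

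The second step was firmer. From mice before transformation to lymphoma Prkag2 rose by 0.56 ± 0.17 (1.47-fold, adjusted p = 0.0187) and 0.82 ± 0.22 (1.76-fold, adjusted p = 0.0107), called in 24 of 27 and 23 of 25 settings with adjusted p of 0.00684 to 0.671 and 0.00713 to 0.7. The call of 1451140_s_at was lost without mouse 5 before transformation (0.50). That of 1423831_at is of a probe set that controls and lymphomas alone brought past the filter. In mice numbered 1 and 2 alone the differences were 0.26 and 0.46, in mice numbered 3 and up 0.73 and 1.01, and with sex as a covariate 0.29 and 0.34. Lymphoma differed from control by 0.08 on both probe sets, with 95% intervals of -0.26 to 0.41 and -0.43 to 0.59. The 2 dim Prkag2 probe sets were not tested: 1423832_at had medians of 66.4, 47.0 and 78.2 in controls, mice before transformation and lymphomas, and 1431263_at 76.3, 83.3 and 82.0.

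**Figure D2:**
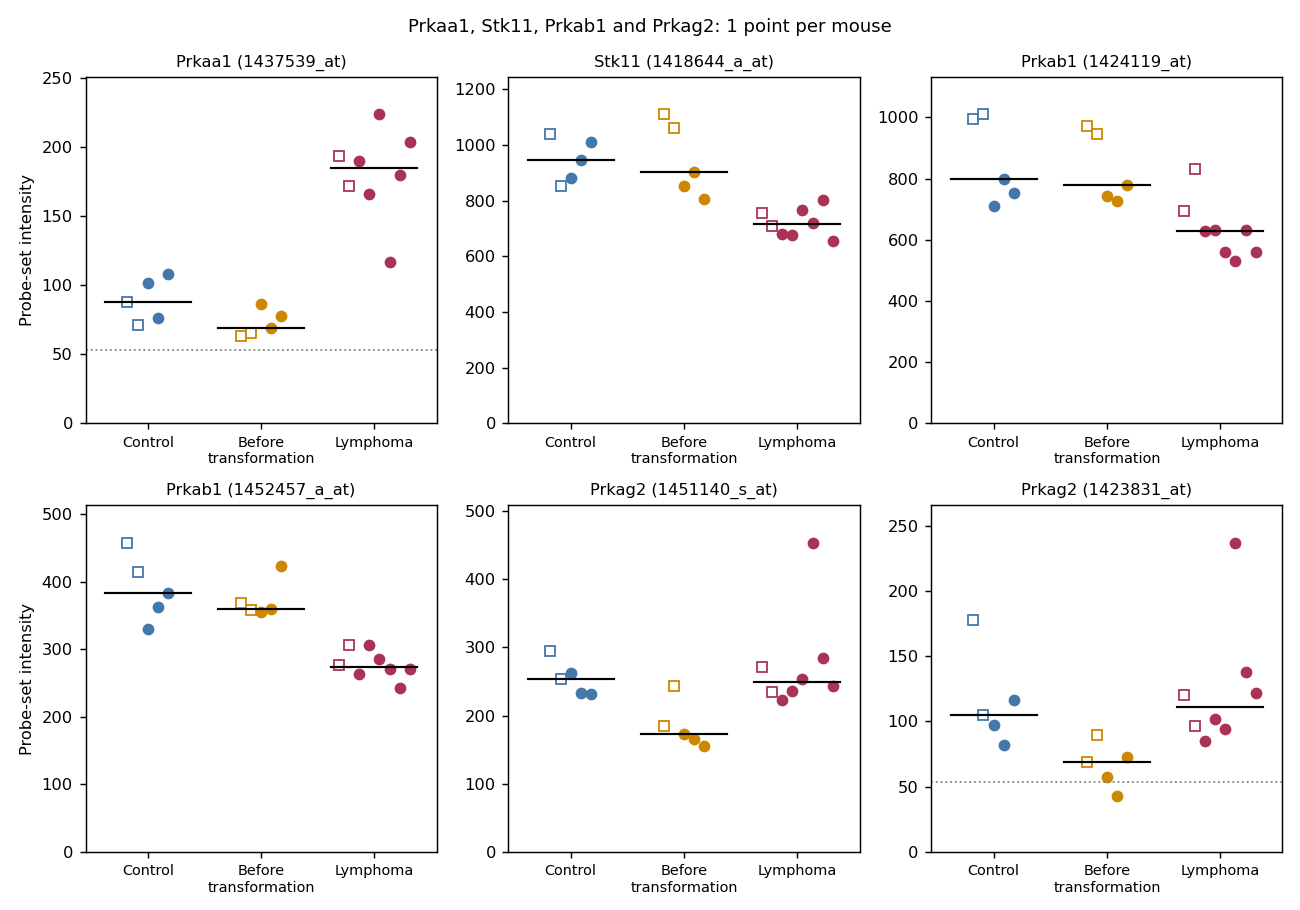
Intensity (linear axis from 0) of 6 probe sets of Prkaa1, Stk11, Prkab1 and Prkag2, 1 point per mouse in 5 controls, 5 mice before transformation and 8 lymphomas; open squares are mice numbered 1 and 2, lines group medians and the dotted line the floor of 53.5. Every lymphoma lies above the other mice for Prkaa1 and below them for Stk11, and lymphoma 6 stands at 454 and 237 on the Prkag2 panels.

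Over the 11 tested probe sets other than those of Prkaa2, 0 rose and 2 fell (18.2%, both of Prkag2) before transformation against control, where 4.48% of all 29947 tested probe sets rose and 5.91% fell. For lymphoma against mice before transformation 3 rose and 3 fell (27.3% each), against 14.7% and 22.0% of all. For lymphoma against control 1 rose (9.09%) and 3 fell (27.3%), against 15.6% and 25.4%. Each count comes from few probe sets, several of them of 1 gene, and nothing particular to the family is read from it. The median difference of all tested probe sets was -0.01, -0.07 and -0.07 in the 3 comparisons. Each pair of comparisons shares 1 group of mice, so their differences are not independent.

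The lymphoma results depend on 2 choices that apply to all probe sets. Under quantile normalization the median of all differences of lymphoma from control moved from -0.07 to 0.03, and the share of calls that were higher moved from 38.1% to 51.7%, or to 49.4% with arrays centred on their median. Against mice before transformation that share moved from 40.1% to 51.4% and 49.7%. With sex as a covariate, where the comparison of lymphoma with the all-male mice before transformation rests on lymphoma 3, Prkaa1 alone of the 6 member calls remained.

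**Figure D3:**
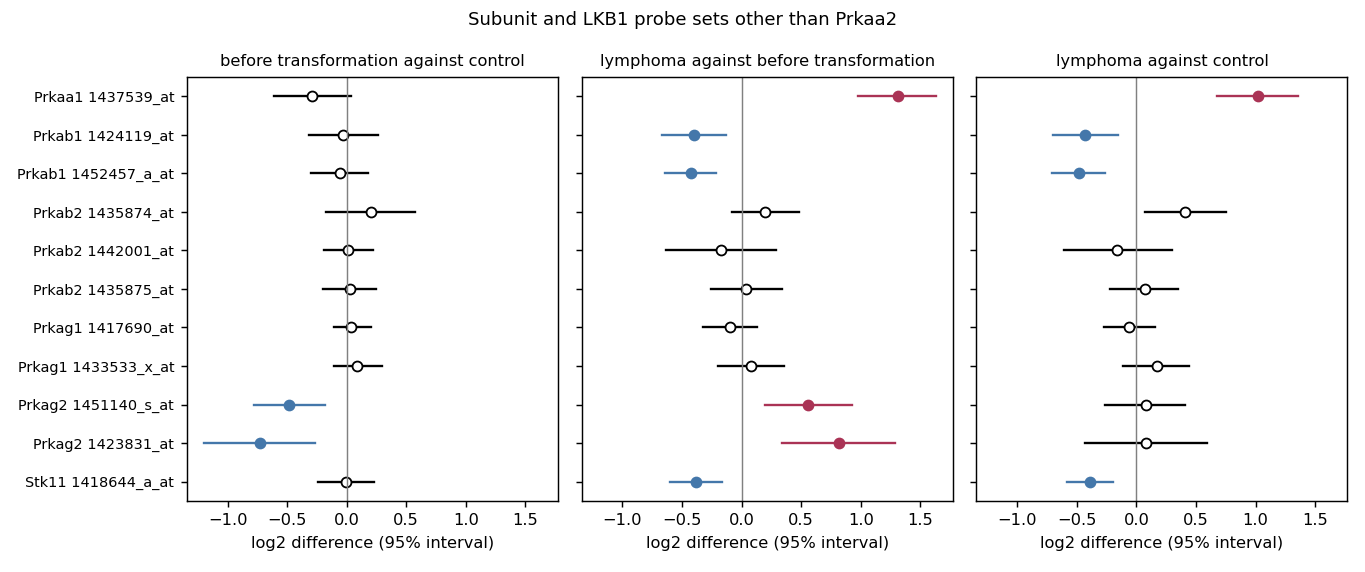
Log2 difference (point) with its 95% interval (line) of the 11 tested probe sets of members other than Prkaa2, in 3 comparisons; filled red points rose and filled blue points fell at limma's adjusted p under 0.05, open points did not pass. Prkaa1 is farthest to the right in both lymphoma panels, at 1.31 and 1.02, and Prkag2 is left of 0 in the first panel alone.

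Among the 8 lymphomas, relative to the lymphoma median on its brightest probe set, Prkaa2 reached 1.65 on the log2 scale in lymphoma 3 and -0.90 in lymphoma 6. Prkag2 stood at 0.87 in lymphoma 6 and between -0.16 and 0.19 in the other 7. Prkaa1 stood at -0.66 in lymphoma 6 and between -0.16 and 0.28 elsewhere. Stk11 stayed within -0.12 and 0.17 in all 8. On these probe sets lymphoma 6 held the lowest alpha subunit signals and the highest gamma 2 signal of the 8 tumours. It was also highest on Prkag2 1423831_at and 1423832_at, which derive from the same clone sequence as 1451140_s_at. On the dim Prkag2 probe set 1431263_at lymphoma 6 was the lowest, at 73.9 in a range up to 101.

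**Figure D4:**
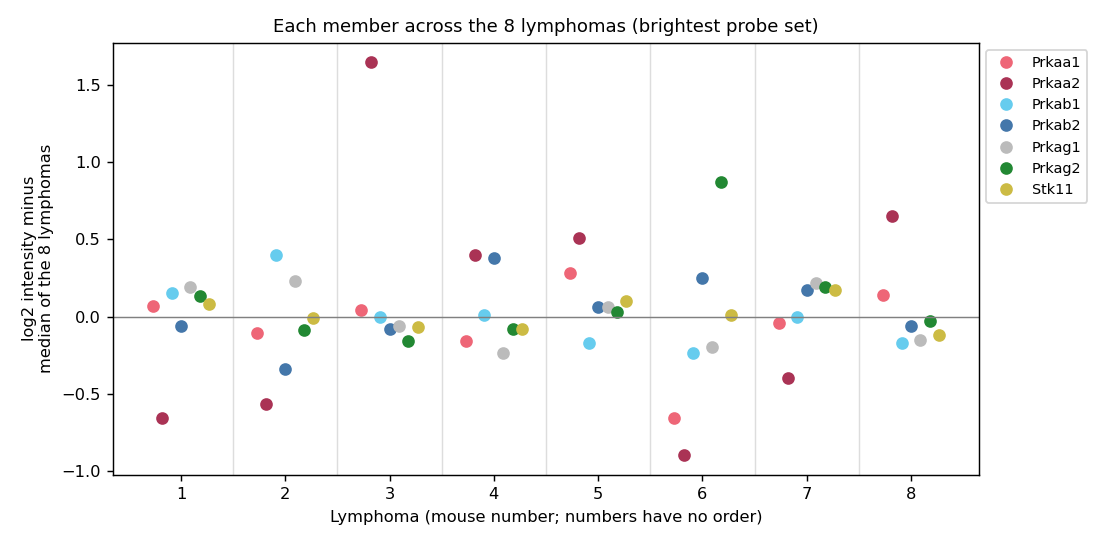
Log2 intensity of the brightest probe set of each member in each of the 8 lymphomas, minus the median of the 8 lymphomas; colours mark the gene and mouse numbers carry no order. Prkaa2 is high in lymphoma 3 (1.65), and lymphoma 6 combines low Prkaa2 (-0.90) and Prkaa1 (-0.66) with high Prkag2 (0.87).

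The genes whose log2 intensity followed Prkaa2 1429463_at most closely over the 18 arrays were Pdcd1lg2 (r = 0.967), Slc25a24 (0.946), Itsn1 (0.939), Cers6 (0.935) and Ndrg3 (0.929). The arrays fall into 3 groups, and these values include the differences between the groups. Pdcd1lg2, which encodes the PD-1 ligand PD-L2, had medians of 107 in controls, 343 before transformation and 246 in lymphomas. Slc25a24, a mitochondrial ATP-Mg and phosphate carrier, had 102, 729 and 582. Cers6, a ceramide synthase, had 735, 2380 and 1700. The other Prkaa2 probe sets correlated with it at 0.969 and 0.894, and Prkaa1 at 0.178.

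Over the 8 lymphomas alone Pdcd1lg2 was again the closest (r = 0.966), followed by D17H6S56E-5 (0.956), D430041D05Rik (0.951), Plekhg3 (0.951) and Fkbp2 (0.939). Pdcd1lg2 ran from 187 to 405 in lymphomas. It is the 1 gene named under both rankings, which are descriptions without a test. The 8 lymphomas are part of both, so the rankings are not independent, and each takes the highest r of many genes.

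Other genes of the pathway were taken from 8 lists totalling 59 genes, of which 48 could be tested by their brightest probe set; the gamma 3 gene Prkag3 was too dim. Before transformation 1 gene rose and 4 fell against control (2.08% and 8.33%), where 4.34% of all 14018 genes rose and 6.06% fell. For lymphoma against mice before transformation 9 rose and 13 fell (18.8% and 27.1%), against 16.1% and 18.5% of all genes. For lymphoma against control 11 rose and 16 fell (22.9% and 33.3%), against 17.2% and 22.6%. These shares were not tested against each other, and nothing particular to the lists is read from them. Of 37 calls of the pathway genes named here, 13 were lost with sex as a covariate and 24 in the mice numbered 1 and 2 alone, with 2 mice per group.

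Upstream of the kinase, 0 of the 4 partners of LKB1 passed before transformation against control, with adjusted p of 0.56 or more. Of all genes, 4.34% rose and 6.06% fell there. In lymphoma Strada, the pseudokinase that activates LKB1, rose by 0.44 ± 0.13 from mice before transformation (adjusted p = 0.0139) and by 0.61 ± 0.14 from control (adjusted p = 0.0027). Cab39, the MO25 scaffold of the same complex, fell from control by 0.57 ± 0.19 (adjusted p = 0.0292) and lost that call without control 1, 2 or 3 or lymphoma 3. The kinases Camkk2 and Map3k7, the other upstream activators tested, passed in none of the 3 comparisons, with differences between -0.20 and 0.10.

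Of the kinases related to AMP-activated kinase that LKB1 also activates, 3 of 10 tested fell before transformation, where 6.06% of all genes fell. They were Snrk by 0.59 ± 0.09 (adjusted p = 0.00164), Sik3 by 0.50 ± 0.10 (adjusted p = 0.00863) and Sik2 by 0.37 ± 0.09 (adjusted p = 0.0248). Sik2 kept that call in 14 of 24 settings (adjusted p 0.0142 to 0.146) and lost it with the replicate number as a block (adjusted p = 0.0551), and without mouse 4 before transformation or control 1, 2 or 3. From mice before transformation to lymphoma 4 fell and 1 rose, where 18.5% of all genes fell and 16.1% rose. Sik2, a salt-inducible kinase that holds CREB coactivators in the cytoplasm, fell by a further 0.88 ± 0.14 (adjusted p = 0.000234) and Snrk by 0.53 ± 0.11 (adjusted p = 0.00251). Sik2 medians were 548, 408 and 205 in controls, mice before transformation and lymphomas, and those of Snrk 905, 628 and 423, with no overlap between groups. Mark3, a microtubule-affinity regulating kinase, fell by 0.41 ± 0.09 (adjusted p = 0.00221), but not with arrays centred on their median (-0.33). Against control 5 fell and 1 rose, where 22.6% of all genes fell and 17.2% rose. Sik2 was lower by 1.25 ± 0.13 (SE) and Sik3 by 0.79 ± 0.11 at adjusted p of 4.68e-06 and 4.98e-05.

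Among 12 tested substrates and metabolic targets, Srebf1, a transcription factor of lipid synthesis that the kinase phosphorylates, rose before transformation by 0.86 ± 0.12 (adjusted p = 0.000481). It fell again in lymphoma by 0.78 ± 0.13 (adjusted p = 0.000296), and its medians were 1290, 2470 and 1320. Eef2k, which halts translation elongation, fell before transformation by 1.04 ± 0.18 (adjusted p = 0.00295) and also fell from control to lymphoma by 1.29 ± 0.20 (adjusted p = 0.000153). That difference was -2.27 in mice numbered 1 and 2 alone and -0.83 in mice numbered 3 and up.

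Acaca, the acetyl-CoA carboxylase that is the classic substrate of the kinase, rose from mice before transformation to lymphoma by 1.32 ± 0.24 (2.5-fold, adjusted p = 0.000779), and its medians were 230, 221 and 500. Cpt1a, which carries fatty acids into mitochondria and is blocked by the product of Acaca, rose at the same step by 1.29 ± 0.20 (2.44-fold, adjusted p = 0.000212). Foxo3 fell from control to lymphoma by 0.88 ± 0.16 (adjusted p = 0.000557), with a difference of -0.41 in mice numbered 1 and 2 alone that did not pass.

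In the group of mTORC1 and its TSC control, 0 of 10 tested genes passed before transformation. Of all genes, 4.34% rose and 6.06% fell at that step. In lymphoma Tsc1, part of the complex that restrains mTORC1, fell by 0.76 ± 0.13 from mice before transformation (adjusted p = 0.000347) and by 0.85 ± 0.12 from control (adjusted p = 4.8e-05). Mlst8, an mTOR partner, rose by 0.43 ± 0.10 (adjusted p = 0.0033) and 0.46 ± 0.10 (adjusted p = 0.00216). Rptor rose against control by 0.35 ± 0.09 (adjusted p = 0.00589), a call lost with the replicate number as a block (adjusted p = 0.0518, of 0.00246 to 0.334 over 27 settings). Mtor itself passed barely against mice before transformation (-0.32, adjusted p = 0.0496); that call was lost in 18 of 27 settings (adjusted p 0.0108 to 0.762), among them each mouse before transformation and each of lymphomas 3 to 8 left out, and the replicate number as a block (adjusted p = 0.09).

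The folliculin complex, Flcn with Fnip1 or Fnip2, binds AMP-activated kinase, and none of its 3 genes passed before transformation. Against control all 3 fell in lymphoma, where 22.6% of all genes fell. Flcn fell by 1.01 ± 0.17 (adjusted p = 0.000303), Fnip1 by 0.74 ± 0.22 (adjusted p = 0.0134) and Fnip2 by 0.63 ± 0.16 (adjusted p = 0.00583). Fnip2 lost its call with the replicate number as a block (adjusted p = 0.0596, of 0.00386 to 0.234 over 27 settings). Against mice before transformation Flcn fell by 0.99 ± 0.24 and Fnip1 by 0.79 ± 0.22 (adjusted p = 0.0053 and 0.0115). In the mice numbered 1 and 2 alone Flcn differed by 0.08 at that step and Fnip1 by -0.33, and in mice numbered 3 and up Flcn differed by -1.56. Fnip2, not called at that step in all mice, differed by 0.58 in mice numbered 1 and 2 and by -1.17 in mice numbered 3 and up, where it passed (adjusted p = 0.000618, of 0.000618 to 0.889 over 27 settings). Before transformation against control, Flcn differed by -0.77 and 0.48 in these sets of mice and Fnip2 by -1.2 and 0.56, none of which passed.

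Adenylate kinases set the AMP level that the gamma subunits read, and AMP deaminases remove AMP. Of 7 tested, 0 passed before transformation, where 4.34% of all genes rose and 6.06% fell. Ak5 read 1.29 to 28.7 in controls, all under the floor, 11.0 to 97.1 before transformation and 619 to 1650 in lymphomas, with no overlap between lymphomas and any other mouse. It rose by 3.79 ± 0.23 (13.9-fold, adjusted p = 1.17e-07) from mice before transformation, and was at least 17.8-fold higher in lymphoma than in control. The first of these folds rests in part on the floor, which 1 of the 5 mice before transformation was under. Its log2 difference was 3.51 to 4.4 over 27 settings, in all of which Ak5 passed (adjusted p = 1.41e-10 to 0.00233). Ak5 entered the main test through the lymphomas alone, as no other mouse was above the filter intensity of 109. Ampd2 rose by 0.68 ± 0.12 (adjusted p = 0.00059) and 0.49 ± 0.12 (adjusted p = 0.0055) in the 2 lymphoma comparisons, but differed by 0.43 and 0.08 in mice numbered 1 and 2 alone. Ak4 rose by 0.62 ± 0.20 from mice before transformation (adjusted p = 0.022), not without mouse 4 before transformation (0.54), and Ampd1 fell against control by 0.80 ± 0.17 (adjusted p = 0.00154). Ak4 entered the main test through controls and lymphomas alone, as no mouse before transformation was above the filter intensity of 109.

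**Figure D5:**
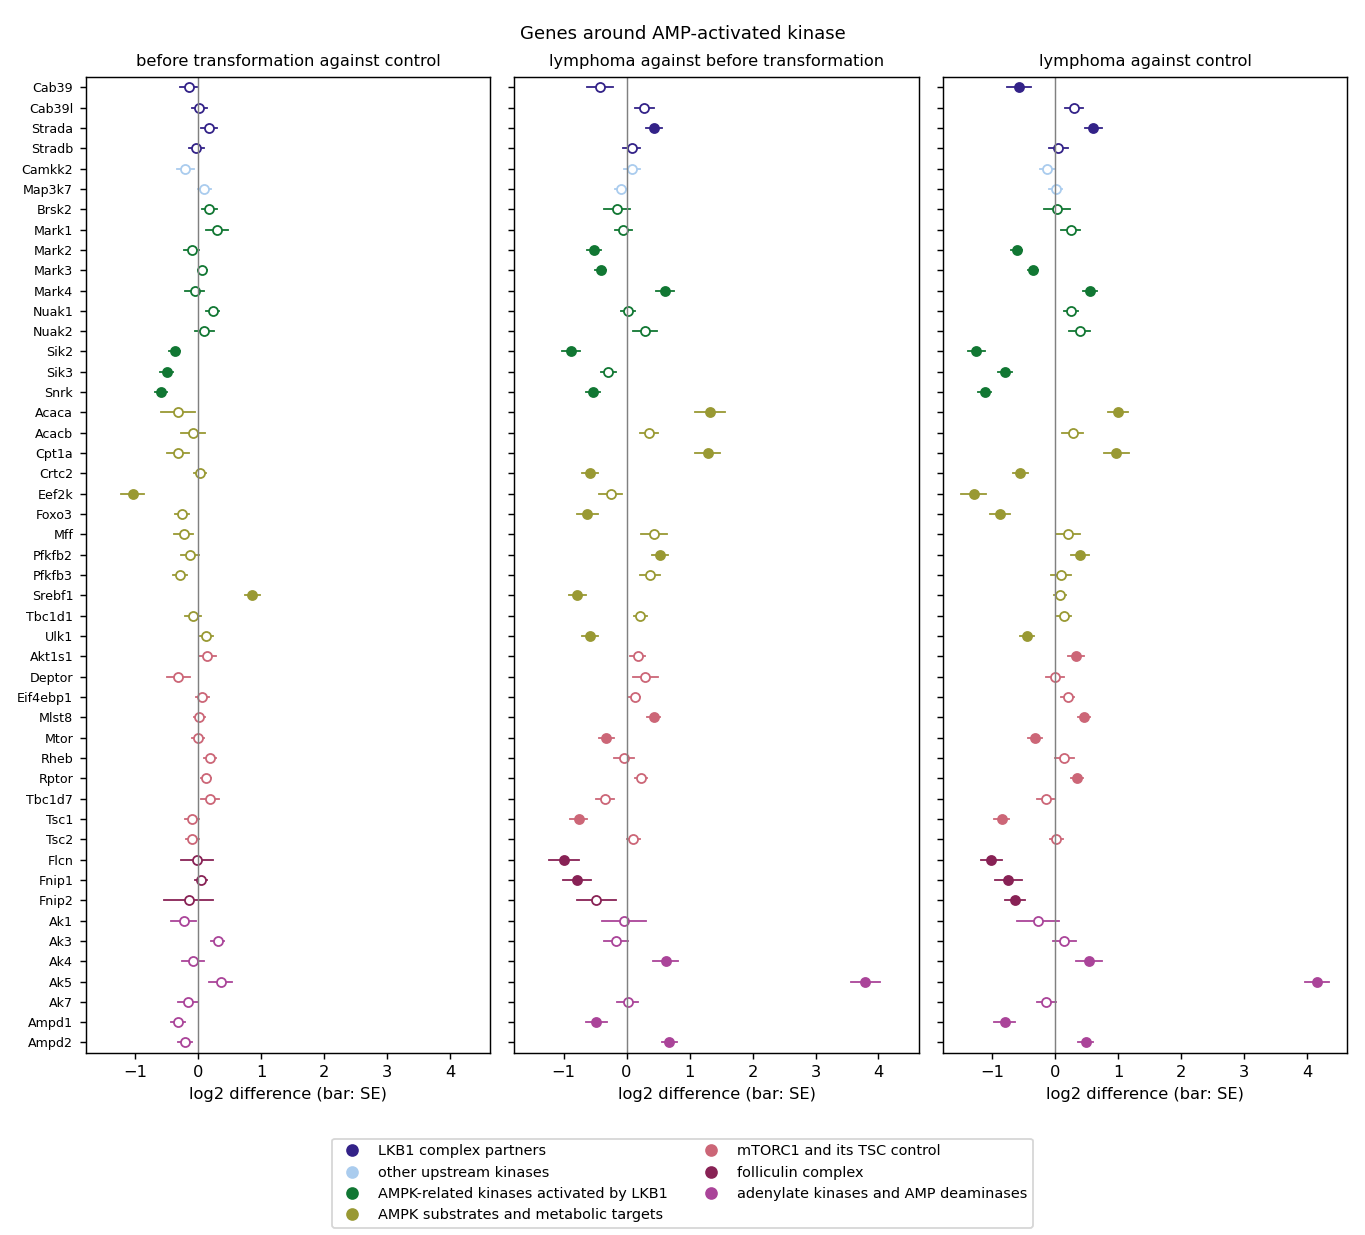
Log2 difference (point) and SE (bar) of 48 genes around AMP-activated kinase in 3 comparisons, coloured by list; filled points passed at limma's adjusted p under 0.05 over all probe sets. Ak5 is farthest right in both lymphoma panels at 3.79 and 4.16, the second a lower bound as all controls are at the floor, and Snrk, Sik2 and Sik3 lie left of 0 in all 3 panels.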

How the data were processed

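The deposited table holds linear intensity per probe set, computed by the authors in dChip as the series' design text says; its version, model and scaling are not given in the sources used. It has 45101 probe sets on 18 arrays, with 9775 blank values and 64 array controls. Genes were named through the platform annotation. Blanks and values under 53.5 (20th percentile) were set to that floor, and log2 was taken. The spread of array medians, 0.41 in log2 units, was under the limit of 0.5 for rescaling. The 29947 probe sets above 109 (40th percentile) on at least 5 arrays were fitted with limma 3.58.1 in R 4.3.3 (lmFit, eBayes with intensity trend), each comparison on its 2 groups alone, with Benjamini-Hochberg adjustment over all of them. Adjusted p under 0.05 counts as risen or fallen, and each adjusted p printed is limma's.

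The code was tested on simulated data. Figures used matplotlib 3.10.9. Promoters came from the RefSeq table. All members, and per list and comparison up to 3 pathway genes with the smallest adjusted p, are named. The 5 genes most like Prkaa2 over all arrays and over lymphomas are named too. Members and lists were chosen with earlier results of these data known. Mouse numbers are those of the labels, where mice 1 and 2 and mice 3 and up were compared as sets. Alternatives covered floor, filter, scaling, the model, sex, mouse sets, the replicate block and each mouse left out.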

Additional observations from a re-analysis of the deposited data

Results flagged for a closer look

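Over the 17 probe sets of the members, tested or not, 48 groups of mice were looked at, leaving out those with 3 or more mice at the floor, and 5 had a highest or lowest mouse far from the others by Dixon's test, where chance gives about 1 in 20. Prkaa1 1437539_at was 117 in lymphoma 6, against 166 to 224 in the other lymphomas. Prkag2 was 454 on 1451140_s_at and 237 on 1423831_at in the same lymphoma 6, against 223 to 284 and 85.0 to 138. Prkab1 1452457_a_at was 424 in mouse 5 before transformation, against 355 to 368. Prkag1 1417690_at was 1580 in mouse 2 before transformation, against 1350 to 1380.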

How the results depend on the processing

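Of the alternative values computed for the members and the named pathway genes, 2550 stayed on the same side of the threshold or, where there was no test, near the main value. Of these, 2485 kept their direction and 65, none of them called, changed sign. Another 125 lost the call, 19 gained it, 9 moved in size and 2 reversed. The 2 reversals were Prkaa2 1429463_at for lymphoma against before transformation with sex as a covariate (0.63) and Flcn for the same comparison in mice numbered 1 and 2 alone (0.08). The count of 2 member probe sets called before transformation against control became 1 with the floor at the 10th or 30th percentile, the filter at the median, 1 probe set per gene or mice numbered 3 and up alone, and 0 with no filter, median centring, quantile normalization, all 3 groups in 1 fit, mice numbered 1 and 2 alone or sex as a covariate; leaving out 1 mouse gave 0 to 2. The count of 6 for lymphoma against before transformation became 2 in mice numbered 1 and 2 alone and 1 with sex as a covariate, and leaving out 1 mouse gave 5 to 6. The count of 4 for lymphoma against control became 2 in mice numbered 1 and 2 alone, and leaving out 1 mouse gave 4 to 5. The causes were not tested, except that mice numbered 1 and 2 alone are fewer samples.

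Mice with the same number deviated from their group means with correlations of -0.144 to 0.377, so the numbers were not taken to pair the mice. With the replicate number as a block the count before transformation against control became 1. Mice numbered 1 and 2 correlated across groups at a median of 0.246, and no batch is named in the labels. Values near the floor limit Prkaa2 in controls, the dim Prkag2 and Stk11 probe sets and Ak5.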
